A study of Mus musculus with 4 samples.

Results

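The regions described here are the 594 distinct open regions listed on mouse chromosome 10 from 79649405 to 81606900 (build mm10), a stretch of 1.96 Mb, out of 6018 regions on that chromosome and 113404 in the whole list. The stretch was chosen because 3 of the clusters with the most regions lie in it, so the number and density of its regions are given as a description and no test is made of them. The assay was bulk ATAC-seq, which marks open chromatin by where the transposase Tn5 can insert adapters, and the cells were organoids grown from wild-type mouse colonic epithelium. There was 1 library in each of 4 groups: colitis organoids with 10 µM T-5224 for 24 h, control organoids with 10 µM T-5224 for 24 h, colitis organoids with 0.1% DMSO for 24 h, and control organoids with 0.1% DMSO for 24 h. T-5224 is a small-molecule inhibitor of the transcription factor AP-1, and the labels do not say how the colitis and control organoids came to differ, nor the strain or age. All 4 cultures were grown in WENR medium, which supplies Wnt, EGF, Noggin and R-spondin, carry the batch name DSS33, and were frozen alive and thawed before nuclei were taken. The values came from 1 peak list for the series, without a value for a single library, so the groups were not compared, the depth of each library is unknown and no value has a replicate.

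Open chromatin in animal genomes is gathered at promoters and enhancers, and many promoters of widely used genes are CpG islands, stretches rich in the CG dinucleotide that are usually free of nucleosomes. Genes are spread unevenly along chromosomes, and gene-dense segments hold mostly short genes set close together. The stretch is such a segment. It overlaps 117 protein-coding genes, among them Stk11, Tcf3, Map2k2, Dot1l, Gna11 and Tjp3, with 18 genes for long noncoding RNAs and 9 for microRNAs. All 6 marker genes of colonic epithelium that were examined had a summit within 1000 bp of an outer gene end, from 16.8-fold over background at Krt20 to 59.1-fold at Krt8. Of the leukocyte markers, Itgam had a summit, at 4.99-fold, and Ptprc and Cd3e had none. Of 4 markers of fibroblasts and muscle, Col1a1 had 16.3-fold and Myh11 6.84-fold, of 2 neuronal markers Syt1 had 4.41-fold, and neither of 2 endothelial markers had a summit at an end. Inside these genes, however, summits were listed for all 4 markers of fibroblasts and muscle, both neuronal and both endothelial markers. Among them Syt1 had 32.7-fold, near the 33.6-fold of the epithelial marker Epcam, Pdgfra 8.81-fold, Cdh5 8.35-fold, Rbfox3 6.03-fold and Pecam1 4.75-fold. The part of such cells in the values of the stretch was not tested.

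Promoter sequences are shown for the 3 strongest gene ends of the stretch and for the first 2 genes, by position, without a summit at an outer end, to set the most open promoters beside genes that lacked a summit there. Each runs 5′ to 3′ in the direction of the gene, from 250 bases before to 50 bases after a start site, with CG pairs in capitals (RefSeq, GRCm38.p6, which shares its coordinates with mm10).
Oaz1: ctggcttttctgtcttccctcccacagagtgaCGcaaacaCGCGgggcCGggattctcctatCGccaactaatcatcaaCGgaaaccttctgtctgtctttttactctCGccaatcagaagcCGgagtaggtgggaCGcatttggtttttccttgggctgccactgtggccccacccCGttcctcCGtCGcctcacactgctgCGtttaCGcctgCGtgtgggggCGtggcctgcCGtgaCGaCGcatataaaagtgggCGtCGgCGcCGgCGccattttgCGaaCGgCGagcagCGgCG
Pip5k1c: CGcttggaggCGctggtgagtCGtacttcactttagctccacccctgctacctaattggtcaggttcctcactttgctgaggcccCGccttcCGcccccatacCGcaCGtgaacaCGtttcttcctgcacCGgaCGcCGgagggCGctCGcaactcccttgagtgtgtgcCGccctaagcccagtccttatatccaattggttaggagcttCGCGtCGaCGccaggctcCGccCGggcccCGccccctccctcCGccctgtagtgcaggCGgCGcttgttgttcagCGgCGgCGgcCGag
Ap3d1: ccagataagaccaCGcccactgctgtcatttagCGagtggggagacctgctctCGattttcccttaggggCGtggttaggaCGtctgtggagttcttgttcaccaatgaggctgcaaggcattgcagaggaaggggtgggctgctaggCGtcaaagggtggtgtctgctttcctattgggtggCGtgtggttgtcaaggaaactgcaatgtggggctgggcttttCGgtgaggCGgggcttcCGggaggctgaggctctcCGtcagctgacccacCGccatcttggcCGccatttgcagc
Rnf126: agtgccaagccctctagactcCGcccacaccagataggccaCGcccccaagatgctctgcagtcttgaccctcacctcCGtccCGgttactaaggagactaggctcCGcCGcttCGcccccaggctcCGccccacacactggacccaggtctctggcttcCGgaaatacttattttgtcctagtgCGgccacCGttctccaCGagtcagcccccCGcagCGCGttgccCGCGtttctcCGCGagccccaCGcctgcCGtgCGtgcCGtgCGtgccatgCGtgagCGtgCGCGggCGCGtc
Elane: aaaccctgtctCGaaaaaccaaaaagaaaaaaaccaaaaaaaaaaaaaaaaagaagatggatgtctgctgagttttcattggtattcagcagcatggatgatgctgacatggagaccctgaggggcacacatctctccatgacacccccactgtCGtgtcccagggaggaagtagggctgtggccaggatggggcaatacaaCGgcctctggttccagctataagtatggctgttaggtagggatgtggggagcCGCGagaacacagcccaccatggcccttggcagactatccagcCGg
Oaz1 (chr10:80826406-80826705, plus strand), Pip5k1c (chr10:81292713-81293012, plus strand) and Rnf126 (chr10:79766903-79767202, minus strand) hold 29, 28 and 30 CG pairs. Ap3d1 (chr10:80742226-80742525, minus strand) holds 13, and Elane (chr10:79886062-79886361, plus strand) holds 6. The strongest summit within 1000 bp of these start sites reached 84.1-fold at Oaz1, 76.5-fold at Pip5k1c, 74.9-fold at Ap3d1 and 55.0-fold at Rnf126, and no summit was listed at Elane. Rnf126, an E3 ubiquitin ligase gene, thus lacked a summit at its outer ends but not at this start site, which lies inside its outer bounds.

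The stretch made up 1.54% of the chromosome between its first and last region but held 9.87% of its regions and 11.7% of its protein-coding genes. Regions lay at 303 per Mb in the stretch, against 43.3 per Mb in the rest of chromosome 10, and covered 28.1% of the sequence, against 3.07%. Protein-coding genes lay at 59.8 per Mb in the stretch and 7.05 per Mb in the rest. Genes filled 71.0% of the stretch and 41.4% of the rest. Genes were thus 8.48 times as dense and regions 7.01 times as dense, so that there were 5.08 regions per protein-coding gene in the stretch and 6.14 in the rest of the chromosome.

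The change in density was abrupt at both bounds. Both are outer edges of clusters of regions, joined where edges lay within 12500 bp, so a gap beyond each bound was fixed by the choice. The drop is therefore a description. Each 100 kb of the stretch held between 17 and 44 regions, whereas the bins on either side held between 0 and 11. The 500 kb below the stretch held 16 regions and 10 protein-coding genes, of which 4 had a summit at an outer end. The 500 kb above held 10 regions and 15 protein-coding genes, of which 5 had one. The first region inside, at 79649405 to 79649725, had 6.14-fold (4.62 to 8.02), and the last region before it lay 34.8 kb away with 11.9-fold (9.76 to 14.5). At the upper bound the last region inside, at 81604827 to 81606900, had 46.5-fold (42.1 to 51.3), and the next one lay 16.5 kb away in Sirt6 with 5.10-fold (3.72 to 6.83). Intervals of a fold value are exact Poisson 95% intervals and cover counting error only.

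**Figure D1:**
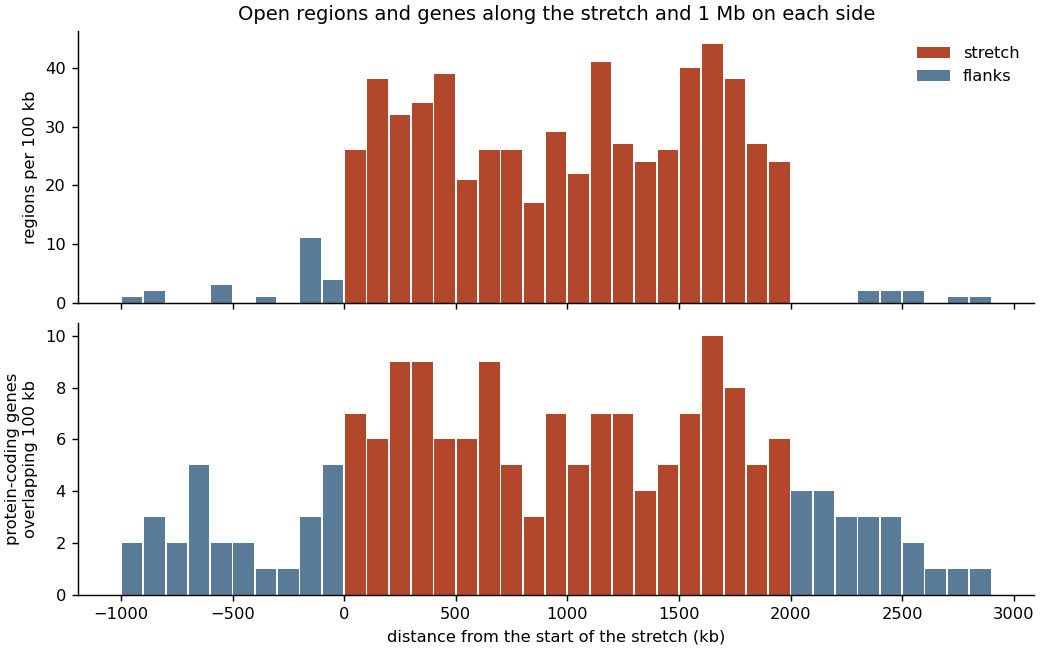
Number of regions (upper panel) and of protein-coding genes (lower panel) in bins of 100 kb, against the distance in kb from the start of the stretch; red bars are bins of the stretch, the last of which crosses its end, and blue bars are the flanks. Bins of the stretch hold 17 to 44 regions and those of the flanks 0 to 11.

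Against windows of the same length the stretch had the most regions, both among 64 windows of chromosome 10 and among 1295 windows of all chromosomes. The window next in number on chromosome 10, from 126629309 to 128586804, held 263 regions and 77 protein-coding genes, and 11.6% of its sequence was covered. In the other 63 windows of the chromosome, regions and genes rose together (Pearson's r = 0.62, Spearman's rho = 0.71, a description across neighbouring windows of 1 list). Gene-poor windows can hold many regions per gene, and by regions per gene the stretch was 42nd of 64. A closer comparison is with the 20 windows of all chromosomes that had the most protein-coding genes with a summit at an outer end, chosen after the data were seen. These held 65 to 110 protein-coding genes and 2.49 to 4.19 regions per gene, all below the 5.08 of the stretch, and 9.71 to 16.9% of their sequence was covered, against 28.1%. Regions below 3-fold are counted here, and they made up 36.7% of the stretch and 14.0 to 30.5% of these windows. Without them the stretch had 3.21 regions per gene, and the windows were not compared in this way.

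**Figure D2:**
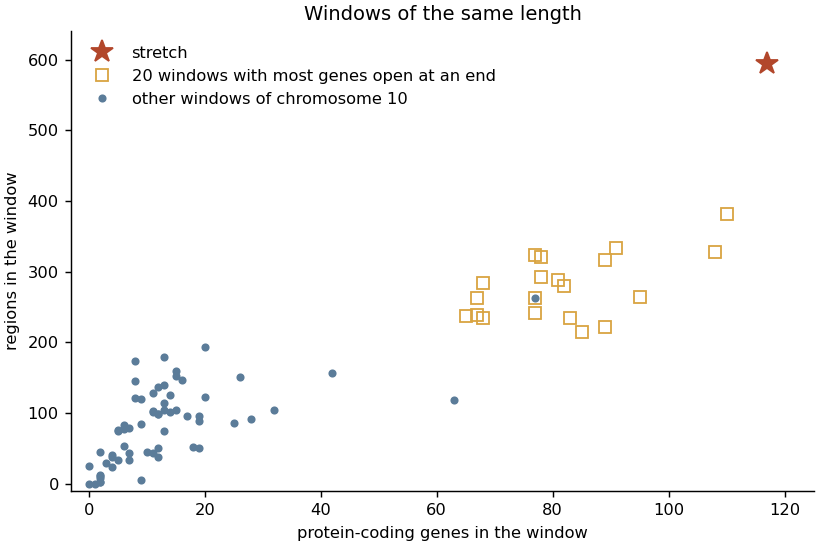
Regions against protein-coding genes in windows as long as the stretch; the star is the stretch, open squares are the 20 windows of all chromosomes with the most genes open at an outer end, and dots are the other windows of chromosome 10, of which the one at 77 genes is also a square. The stretch lies at 117 genes and 594 regions, and the squares reach 381 regions.

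Genes of the stretch were short, with a median length of 9238 bp, against 19835 bp for those of the rest of the chromosome. Among genes of like length, more regions overlapped those of the stretch. The density of regions, 303 per Mb against 43.3, would give this in itself, so it is no further result. Genes of the gene-dense windows were not compared by length. For genes of 5 to 10 kb the median was 4 regions in the stretch (35 genes) and 1 in the rest (92 genes), and for genes of 10 to 20 kb it was 4.5 (38 genes) and 2 (146 genes). For genes of 20 to 40 kb it was 6 (14 genes) and 2 (143 genes). Taking only genes of the rest with a summit at an outer end, the medians for these 3 classes were 2, 2 and 2. The genes with the most regions were Sbno2 with 22, Dot1l, a histone H3 methyltransferase gene, with 20, Gng7 and Nfic with 17 each, and Palm with 12. Sbno2 encodes a transcriptional co-regulator, Gng7 a G protein gamma subunit, Nfic a factor of the nuclear factor I family and Palm a membrane protein, paralemmin. Of the 22 regions over Sbno2, 12 were below 3-fold, as were 8 of 20 over Dot1l and 3 of 17 over Gng7.

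Regions were strung closely. The median gap between neighbouring regions was 1100 bp in the stretch (25th to 75th percentile, 236 to 3074 bp), against 5008 bp in the rest of the chromosome (1254 to 16352 bp). Of the 593 gaps in the stretch, 47.6% were under 1 kb and 3.54% over 10 kb, against 21.6% and 35.1% in the rest. The longest gap, 30.9 kb from 80709688 to 80740606, lay inside Ap3d1, whose own end carried 1 of the strongest regions. Joined where edges lay within 12500 bp, the regions formed 10 clusters. The 7 clusters of 30 or more regions held 580 of the 594 regions and were 67.1 to 390 kb long, with 31 to 137 regions, 27.5 to 41.3% of their sequence covered and median folds from 3.13 to 4.41. The densest of the 7, with 31 regions at 46.2 per 100 kb, spanned Dot1l, Plekhj1, Sf3a2, Amh and an end of Ap3d1. The 3 small clusters, of 5, 2 and 7 regions, lay in the gene-poor middle from Tcf3 to Onecut3. Elsewhere on the chromosome the largest cluster had 49 regions.

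**Figure D3:**
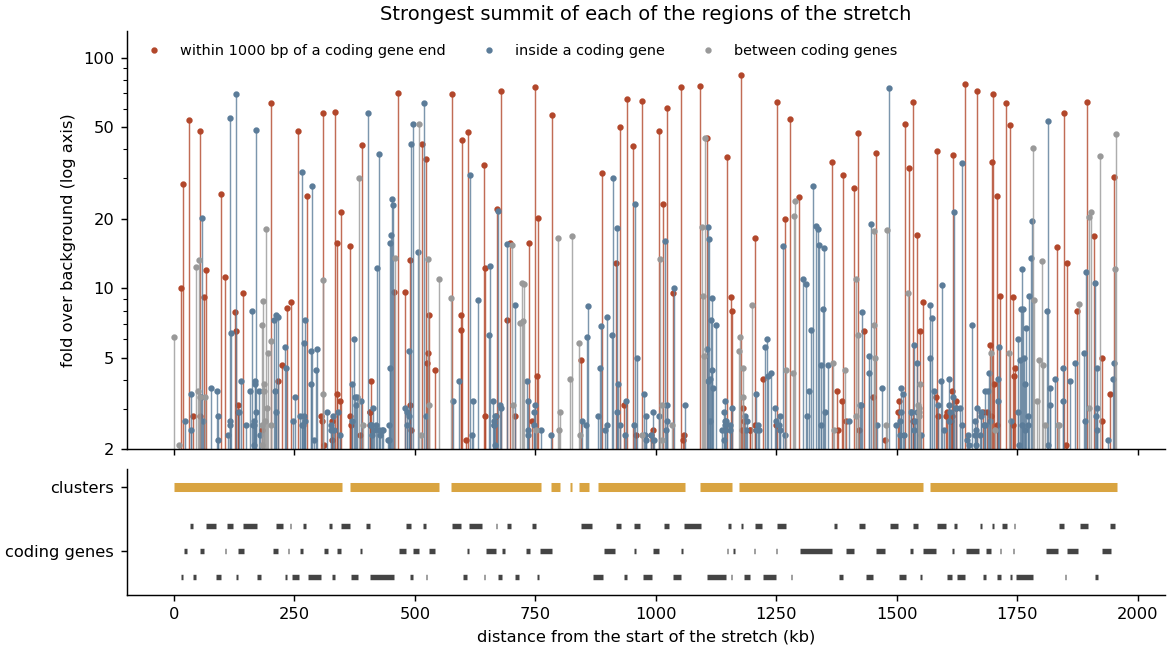
Strongest summit of each of the 594 regions as fold over background (log axis) against distance in kb from the start of the stretch, coloured by position relative to protein-coding genes, with the clusters and protein-coding genes drawn below (genes in 3 rows for legibility). Regions above 50-fold recur along the whole stretch, and the 3 small clusters lie in its middle.

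The intervals of the median width overlapped, but wide regions were more frequent in the stretch. The median width was 490 bp (451 to 544 bp, exact binomial 95% interval of the median) in the stretch and 478 bp (469 to 488 bp) in the rest of the chromosome. Regions of 3000 bp or more made up 5.39% of the stretch (32 regions; Wilson 95% interval 3.84 to 7.51%) and 1.36% of the rest (74 regions; 1.09 to 1.71%). The near-equal medians held with the weak regions kept: with a −log10 q of at least 5 the median width was 781.5 bp in the stretch and 557 bp in the rest, and with at least 10 it was 1039.5 bp in the stretch and 688 bp in the rest. Regions of 3000 bp or more covered 7.66% of the stretch and 0.247% of the rest of the chromosome. More than 1 summit was listed in 30.1% of regions of the stretch and 20.4% in the rest. The widest, 13925 bp with 22 summits from 81133654 to 81147578, lay over Zbtb7a, which encodes a zinc finger repressor, and reached 74.0-fold (68.3 to 79.9). Next came a region of 9772 bp with 19 summits over Midn and the end of Atp5d, at 51.7-fold. The third, 7256 bp with 11 summits, reached 60.6-fold at Mknk2, the gene of a kinase that phosphorylates a translation initiation factor.

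Regions of the stretch were spread toward both ends of the range of strength. The median fold at the strongest summit was 3.77 (3.36 to 4.17) in the stretch, against 5.10 (4.99 to 5.33) in the rest of the chromosome. Regions below 3-fold made up 36.7% of the stretch (218 regions; 32.9 to 40.7%), against 19.0% of the rest (1028 regions). At the other end, 5.72% of regions in the stretch reached 50-fold (34 regions; 4.12 to 7.89%), against 1.66% (1.35 to 2.04%). Between these limits, from 3-fold to 50-fold, each of the 4 classes drawn held a smaller percentage in the stretch. The order of the medians turned round without the weak regions: with a −log10 q of at least 5 it was 7.54 in the stretch and 6.49 in the rest, and with at least 10 it was 11.1 in the stretch and 8.70 in the rest. All 20 gene-dense windows had a smaller percentage below 3-fold, from 14.0 to 30.5%, while 3 of them had a larger one at 50-fold or more. All fold values are relative to 1 background for every base, so copy number and mappability were not divided out. Their part in the number of weak regions was not tested.

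**Figure D4:**
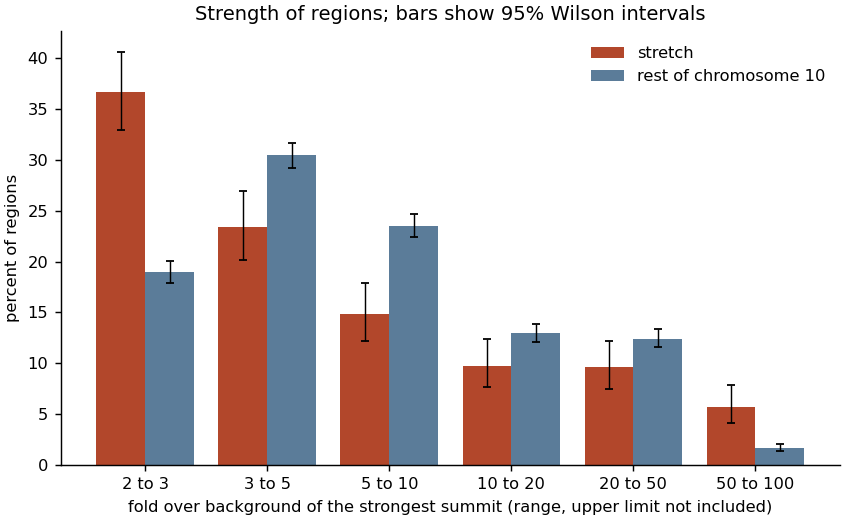
Percent of regions in each range of fold over background, for the stretch (red, 594 regions) and the rest of chromosome 10 (blue, 5424 regions), with Wilson 95% intervals that cover counting error only. The stretch is higher in the ranges 2 to 3 and 50 to 100 and lower in the 4 ranges between.

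Position relative to genes differed as well. By their strongest summit, 29.6% of regions of the stretch (26.1 to 33.4%) lay within 1000 bp of an outer end of a protein-coding gene, against 11.2% in the rest (10.4 to 12.1%). Gene ends were denser as well, with 59.8 protein-coding genes per Mb in the stretch and 7.05 in the rest. The share of sequence near an end was not measured, so these shares do not show whether regions of the stretch favoured gene ends. Regions between genes made up 16.5% in the stretch and 41.2% in the rest, and regions inside genes 53.9% and 47.6%. In the stretch the median fold was 7.94 at gene ends, 3.13 inside genes and 5.16 between genes, whereas the rest of the chromosome had 21.2, 4.64 and 5.10. The values at gene ends are medians over all regions there, 176 for 117 protein-coding genes in the stretch and 608 for 884 in the rest. By the strongest end of each gene with a summit there, the medians were 28.5-fold in the stretch and 26.8-fold in the rest. The 7.94 thus does not show that the strongest end of a gene was weaker in the stretch. Regions below 3-fold lay mainly inside genes, 66.1% of them in the stretch and 56.8% in the rest. Genes, with their ends included, filled 71.0% of the stretch and 41.4% of the rest. The share of sequence inside genes but away from their ends was not measured, so the 66.1% is not shown to be an excess. Of regions at 20-fold or more, 64.8% lay at a gene end in the stretch and 41.8% in the rest.

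Nearly every gene of the stretch was open at an outer end. A summit within 1000 bp of an outer end was listed for 113 of 117 protein-coding genes (96.6%, 91.5 to 98.7%), against 63.9% of the 884 in the rest of the chromosome and 64.1% of those of all other chromosomes with the rest of chromosome 10. In the 20 gene-dense windows, picked by the number of such genes, the share was 69.5 to 96.2%. Summits lay at 532 per Mb in the stretch and 58.6 in the rest, so 1000 bp around any point holds more of them. How much this adds to the share was not measured. The strongest end reached 20-fold in 58.1% of genes of the stretch and 40.7% of genes of the rest, and 50-fold in 25.6% and 8.48%. These shares count genes without a summit at an end. Of genes with one, 68 of 113 reached 20-fold in the stretch and 360 of 565 in the rest, and 30 and 75 reached 50-fold. Their median was 28.5-fold in the stretch and 26.8-fold in the rest. The 113 genes drew on 101 summits, since 12 summits served a pair of genes each, among them Eef2 and Dapk3 (63.9-fold), Timm13 and Lmnb2 (64.3-fold), and Mob3a and Izumo4 (74.4-fold). Of the noncoding genes, all 18 for long noncoding RNAs and 8 of 9 for microRNAs had a summit at an end, against 35.5% and 27.3% in the rest. How far these ends lie from those of coding genes was not measured.

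The table of start sites held 99 of the 117 genes, with 134 start sites, and separates the 2 ends of a gene. A summit within 1000 bp of a start site was listed for 95 of the 99 (96.0%, 90.1 to 98.4%), against 65.6% of 730 genes in the rest of the chromosome. At the 3′ end, a summit was listed for 67 of the 99 (67.7%, 58.0 to 76.1%), against 13.6% (11.3 to 16.2%). Leaving out every summit within 1000 bp of a listed start site of any gene, 59 of the 99 still had one at the 3′ end (59.6%), against 11.0% in the rest. These 3′ summits were weak, with a median of 3.94-fold in the stretch and 3.94-fold in the rest. With 532 summits per Mb in the stretch and 58.6 in the rest, 1000 bp around any point holds more summits in the stretch. Shares at other points were not measured, so the 3′ shares are a description and no result about gene ends. The 32 genes without any 3′ summit include Tcf3, Dot1l and Gna11. Start sites that the table does not hold could lie at some of these ends.

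Promoters of the stretch were rich in CG pairs. Their median G+C content was 61.7%, against 56.7% in the rest of the chromosome, and the median ratio of observed to expected CG pairs was 0.730, against 0.579. The ratio was at least 0.6 in 89 of the 134 promoters (66.4%), against 48.3% in the rest. Of these CG-rich promoters 97.8% touched an open region in the stretch and 93.6% in the rest. Among the promoters poorer in CG pairs, 27 of 45 touched one in the stretch (60%), against 30.8% of 452 in the rest. Regions covered 28.1% of the stretch and 3.07% of the rest, so any sequence of this length touches one more often in the stretch. How much this adds to the shares was not measured, so they are no result about promoters poor in CG pairs. The AP-1 motif TGANTCA, which reads the same on both strands, was found in 7 of the 134 promoters (5.22%, 2.55 to 10.4%), against 5.14% in the rest of the chromosome and 7.05% of promoters on all other chromosomes with the rest of chromosome 10. The promoters with it were those of Grin3b, Cbarp, Sppl2b, Sgta, Creb3l3, Nfic and Celf5, and the strongest summit within 1000 bp of these start sites was 27.2-fold at Sgta. A match is a string of letters and not a binding site.

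Genes were then grouped by role. Of all 117 genes of the stretch 96.6% were open at an end and 58.1% reached 20-fold, with a median of 28.4-fold, those without a summit counted as 0, so that a list open at nearly every member is no result about that list. The 16 genes of nuclear regulators were all open at an end, 9 of them reached 20-fold, and their median was 23.2-fold. Mbd3, which encodes a subunit of the NuRD repressor complex, had 74.2-fold (68.6 to 80.2) and Hmg20b, a gene of a histone-demethylase complex, had 69.6-fold (64.1 to 75.4). Tcf3, the gene of the E proteins of the basic helix-loop-helix family, had 56.1-fold (51.2 to 61.3) and Dot1l 44.9-fold (40.5 to 49.6). The ends gave low values for some genes with strong summits inside: Sbno2 had 9.62-fold at an end and 38.0-fold within the gene, Nfic 6.72-fold and 19.6-fold, and Zbtb7a 21.4-fold and the 74.0-fold of the widest region. Onecut3 and Creb3l3 had 4.87-fold and 3.36-fold at an end, with overlapping intervals.

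The 15 genes of kinases and G protein signalling ranged widely in strength. The strongest end of this list was that of Pip5k1c, the gene of a kinase that makes a membrane phosphoinositide, with 76.5-fold (70.8 to 82.6). Stk11, which encodes the tumour suppressor kinase LKB1, followed with 69.9-fold (64.4 to 75.7). Gna11, a G protein alpha subunit of the Gq family, had 64.2-fold (59.0 to 69.8), Mknk2 60.6-fold (55.6 to 66.1) and Gadd45b, a stress-response gene, 54.3-fold (49.5 to 59.4). The intervals of Stk11 and Gadd45b did not overlap, whereas those of Stk11, Gna11 and Mknk2 did. Map2k2, the gene of the kinase MEK2 that activates ERK, stood lower with 38.7-fold (34.7 to 43.1), and Gna15, an alpha subunit known from blood cells, had 12.9-fold at its 3′ end and a lower value at its start site. Below 3-fold were Tbxa2r, a thromboxane receptor, Matk, a kinase of blood and nerve cells, Plk5, and S1pr4, a receptor of lymphocytes, with 2.09-fold (1.26 to 3.27). That is the lowest fold in the list, which other regions share. Within 2000 bp of an end of S1pr4 the value was 57.3-fold, from the summit at a start site of its neighbour Ncln. All 15 were open at an end, 9 reached 20-fold, and the median was 38.7-fold, beside 28.4-fold for all genes of the stretch.

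Of 12 genes listed under RNA and protein synthesis, 10 reached 20-fold at an end, beside 58.1% of all genes of the stretch, and the median was 39.8-fold, beside 28.4-fold. A summit at an end was listed for 11 of the 12, beside 96.6% of all genes. Eef2, translation elongation factor 2, had 63.9-fold (58.7 to 69.4), read at the end it shares with Dapk3, while the strongest summit near its own start site was 33.2-fold. Fzr1, which had 63.5-fold (58.3 to 69.1), stands in the list but is known as a cell cycle gene, an activator of the anaphase-promoting complex. Rexo1, an exonuclease gene, had none at an outer end and 29.9-fold at a start site within the gene. All 5 genes of mitochondria and redox defence had a summit, and their median was 20.1-fold. That median was read at outer ends, which are not all start sites, so it does not rank the start sites of the list. Atp5d had 17.6-fold at its 3′ end and 42.3-fold at a start site. Timm13, a protein import gene, had 64.3-fold and Ndufs7, a subunit gene of respiratory complex I, 44.1-fold (39.7 to 48.7). Gpx4, the gene of the peroxidase that removes lipid peroxides, had 2.90-fold (1.90 to 4.26) at an outer end but 57.7-fold at a start site within its outer bounds.

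The 8 genes listed under epithelial junctions and the cytoskeleton were all open at an end, beside 96.6% of all genes of the stretch, and their median of 19.3-fold lay below the 28.4-fold of all genes. The 2 members above 20-fold are known for other roles. Ap3d1, a subunit gene of the adaptor complex AP-3, had 74.9-fold (69.2 to 80.9) and Lmnb2, the lamin B2 gene, 64.3-fold, at the end it shares with Timm13. The 64.3-fold summit lies at the start of Timm13, and at the start site of Lmnb2 the value was 19.9-fold. Tjp3, which encodes the tight junction protein ZO-3, had 19.2-fold (16.4 to 22.4) at its start, 35.0-fold (31.2 to 39.2) within the gene, and within 2000 bp the 76.5-fold summit of its neighbour Pip5k1c. The 6 members other than Ap3d1 and Lmnb2 ranged from 2.78-fold at Arhgap45 to 19.4-fold at Palm and Misp, which share a summit. That summit lies at the 3′ end of Palm, whose start site had 9.51-fold. Within the gene Misp had 48.7-fold (44.2 to 53.6), and Palm, Cnn2, Efna2 and Arhgap45 had 6.03-fold to 15.7-fold.

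Genes listed under neutrophil granules and neurons, cells that an epithelial organoid should lack, had no end at 20-fold, beside 58.1% of all genes of the stretch with one. This holds for 1000 bp around an end. Within 2000 bp Prss57 had 69.3-fold and Cbarp 42.3-fold, and the other members stayed below 20-fold. The 69.3-fold summit lies inside the neighbour Fstl3, and the 42.3-fold summit is at a start site of the neighbour Atp5d. Of 4 genes listed under neutrophil granules, a grouping that does not mean they are restricted to neutrophils, Cfd (complement factor D) had 8.70-fold (6.85 to 10.9). Prtn3, a protease gene, had 8.23-fold (6.44 to 10.4) and Prss57 3.59-fold, and Elane, the neutrophil elastase gene, had no region over it. The values of Cfd and Prtn3 were read at the 3′ end, and at their start sites Prtn3 had 2.90-fold and Cfd no summit. The 8 neuronal genes were all open at an end, beside 96.6% of all genes of the stretch, at a median of 9.16-fold, beside 28.4-fold. Celf5, an RNA-binding protein gene, had 15.1-fold (12.6 to 17.9) and Apc2, a homologue of Apc, 12.3-fold (10.1 to 14.9), and Grin3b and Lingo3 had 2.67-fold each. Inside Celf5 a summit reached 53.1-fold. Elane and Jsrp1, a gene of skeletal muscle, were the only protein-coding genes of the stretch without a region over them. Fewer open cells and less open chromatin per cell cannot be told apart in bulk values.

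**Figure D5:**
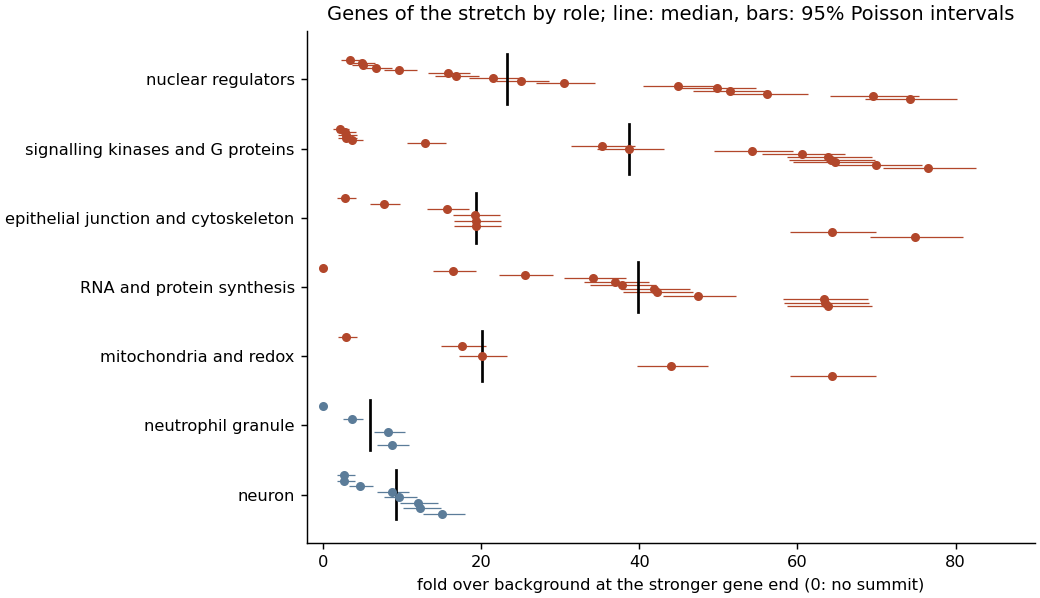
Fold over background at the stronger outer end of each listed gene, by role (points; 0 where no summit was listed), with exact Poisson 95% intervals as bars and the median of each list as a black line; the 5 upper lists are in red, and neutrophil granule and neuron genes in blue. The blue lists end at 8.70-fold and 15.1-fold, and the red lists reach 63.9-fold or more, but in the list of epithelial junctions and cytoskeleton only through Ap3d1 and Lmnb2, the other 6 members lying between 2.78-fold and 19.4-fold. Stronger summits inside genes are not drawn.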

How the data were processed

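Mouse colonic organoids were profiled by bulk ATAC-seq, 1 library in each of 4 groups. Per the submitters' processing notes, Bowtie2, MACS2 and mm10 were used. No version, threshold or treatment of duplicates, nor which libraries were called together, is given in the sources used here. The authors deposited 1 narrowPeak list. Its deposited fold enrichment is a linear ratio to background. The authors' score column equals 10 times their −log10 q without its decimals. The lowest deposited −log10 p was 3.02 and the lowest −log10 q 1.51. Each value belongs to a peak and none to a sample. All fold values were whole multiples of 1 step (tolerance 0.01), which gives a background pileup of 7.63 at every base, and pileups recovered from it gave the Poisson intervals; the lowest pileup was 17. Copies of 1 molecule would make these intervals too narrow.

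Regions with the same bounds were counted once, by their strongest summit. Gene bounds and promoters came from RefSeq on GRCm38.p6. Since gene bounds carry no strand, 1000 bp around either outer end was used. A gene that crossed a bound counted in the stretch. The scripts were tested on simulated data (Python 3.11.15, pandas 2.3.3, scipy 1.17.1). The rule for naming took the 5 strongest ends, the 5 genes with most regions, genes without a summit at an end, the 2 strongest of each role list and 10 genes fixed by name, with the 5 strongest and 3 widest regions. The members, lists and tests were chosen with earlier results of these data known. The other genes named (such as S1pr4, Matk, Tbxa2r, Plk5, Gna15, Zbtb7a, Misp and Sirt6), the 3′ end, CG-pair and gene-dense window comparisons were chosen after their values were seen. 1 marker gene is not reported here.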

Additional observations from a re-analysis of the deposited data

How the results depend on the processing

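No paired analysis was possible because each group had 1 library and the list holds no value for a single library; for the same reason no replicate could be left out. With a −log10 q of at least 10, the stretch had 143 regions per Mb and the rest of chromosome 10 had 26.8; regions per gene were 2.39 in the stretch and 3.80 in the rest; in the stretch the median width was 1039.5 bp, the median gap 3344 bp, the median fold 11.1, 87.2% of genes were open at an end and 38.2% of regions lay at a gene end. With at least 5, the stretch had 192 regions per Mb, 3.21 per gene, a median width of 781.5 bp, a median gap of 2012 bp, a median fold of 7.54 and 89.7% of genes open at an end. Joining regions within 150 bp gave a median width of 575.5 bp and a median gap of 1618 bp. Counting every summit gave 532 per Mb. With windows of 500 and 2000 bp, 19.4% and 47.8% of regions lay at a gene end. Against the 20 gene-dense windows, a comparison added after the data were seen, their values were 142 regions per Mb and 3.40 per gene. These counts include regions below 3-fold. A stricter threshold keeps fewer regions, and a wider window or join more or longer ones, by construction. Leaving out the cluster of 137 regions, or keeping only the clusters of 30 or more, left each of the 8 values of the stretch within its interval or within 1.5 times. On chromosome 10 a window overlapping the stretch kept rank 1, with 313 regions in windows of 1 Mb, against 153 in the best window elsewhere. In shifted windows it held 328, against 225, and as reported 594, against 263. The stretch was chosen for its clusters of regions and the windows were laid from its start, so these ranks are a description. Of 33 named genes, 2, 6 and 25 moved beyond their interval with 500 bp, 2000 bp and the summit anywhere in the gene. Pileups of 17 to 24 limit what can be said of a single region below 3-fold.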
